A study of Danio rerio with 40 samples.

Results

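The transcription factor genes TCF21 (ENSDARG00000036869), TBX18 (ENSDARG00000036930), WT1 (ENSDARG00000031420), wt1b (ENSDARG00000007990), BNC2 (ENSDARG00000069989), GATA5 (ENSDARG00000017821) and HAND2 (ENSDARG00000008305) were followed over 40 single cells of the adult zebrafish ventricle. They are 7 of the 33737 genes in the table, taken by gene identifier because they encode factors known from the epicardium. Every cell came from EK strain fish aged 6 months that carried tcf21:nucEGFP, a transgene that places green fluorescent protein in the nuclei of cells with tcf21 regulatory activity. Cells were sorted as fluorescent and free of the dead-cell dye propidium iodide, and were captured with the Fluidigm C1, which isolates single cells in microfluidic chambers. There was 1 group, with no treatment or injury named, and no animal was named for any cell, so the cells were described as 1 sample and no test was run. Since tcf21 regulatory activity was the basis of the sort, TCF21 transcripts in these cells are not an independent finding.

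The epicardium is the cell sheet on the outer surface of the heart. It supplies signals to the muscle beneath it, and some of its cells leave the sheet and become perivascular cells or fibroblasts. Tcf21 and Hand2 are basic helix-loop-helix factors, which bind DNA in dimers with E proteins. Tbx18 is a T-box factor, Gata5 a zinc finger factor needed for early heart formation in zebrafish, and Bnc2 the zinc finger factor basonuclin 2. WT1 is the zinc finger factor named after Wilms tumor, and zebrafish carry a pair of such genes.

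Levels are given as CPM, the expected reads of a gene scaled to a total of 1000000 per cell. Expected reads are estimated read numbers that need not be whole. A gene was counted as detected at 5 or more expected reads, and a second level of 50 CPM was set beside it. Total expected reads ranged from 340293 to 5695770 per cell. The 25 cells with at least 2000 detected genes were kept, and the other 15 had at most 1885. Cell 40 stood apart with 10792 genes, beside 4119 in the next highest cell. Several joint counts and the pair correlations are also given without cell 40. It held detected markers of several cell types, with 9 of 10 macrophage symbols at 0.0815% of reads and 7 of 9 cardiomyocyte symbols at 0.33%. Also detected were 6 of 7 thrombocyte symbols at 0.689% and 18 of 19 epicardial symbols at 2.49%. The thrombocyte list includes the 2 FN1 rows of the epicardial list, which had 6398.3 and 344 CPM in cell 40. The thrombocyte share of kept cells had a median of 0.415%. Cell 11 held 3.29% of its reads in 10 macrophage markers, against a median of 0% in kept cells, and cells 7 and 33, which were not kept, held 17% and 16.5% in 9 cardiomyocyte markers. In these 3 cells TCF21 had 2 or 3 reads, against a median of 319 CPM in kept cells.

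The check of the epicardial label gave a mixed picture. Among 25 gene rows for other epicardial genes, 4 had 5 reads or more in at least 90% of kept cells and 17 did so in 10 to 90%. A smaller share of cells held for 2 rows, and 2 were in no cell. These classes made up 16, 68, 8 and 8% of the list, beside 1.77, 24.6, 24.8 and 48.8% of all 21939 genes with a symbol. The list was chosen with earlier results of these data known, so this contrast is not an independent check of the label. Together the 25 epicardial rows took up 0.0335 to 8.26% of the reads of a kept cell, with a median of 1.73%. The keratin gene krt8 was detected in 24 kept cells, but ALDH1A2, whose product makes retinoic acid, and podxl, a surface sialomucin gene, were detected in only 6 each. Fibroblast markers made up 1.46% of reads in the median kept cell. Of 7 endothelial markers 5 (71.4%), among them cdh5 and TIE1, were detected in 0 of 25 kept cells, beside 48.8% of all genes. The Wilson interval of 0 in 25 cells reaches 13.32%. Of the other endothelial markers, flt1 was detected in cell 40 and FLI1 reached 50 CPM in cells 26, 31 and 35, with 1618.6 CPM in cell 26.

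**Figure D1:**
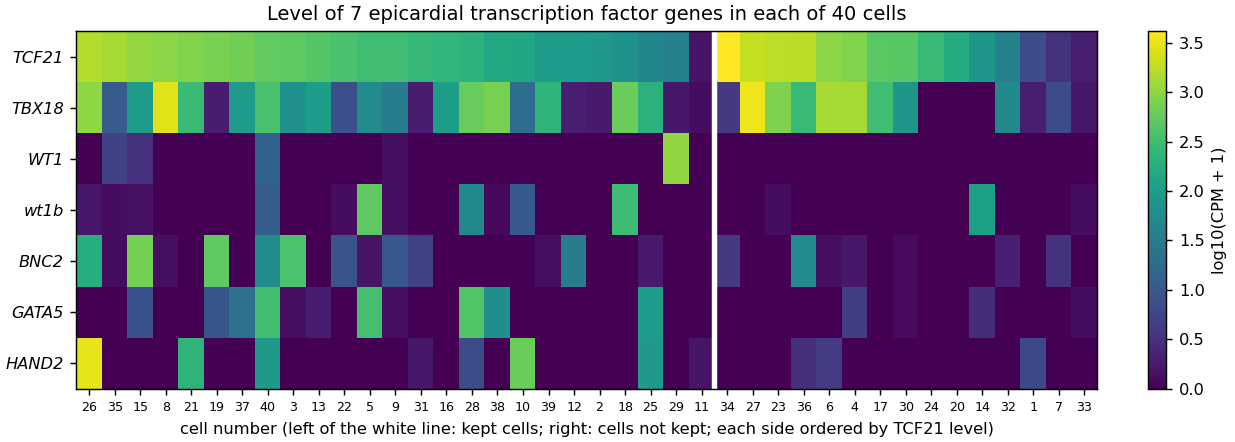
Level of the 7 factors in each cell, as log10(CPM + 1) by colour, with genes in rows and cells in columns. TCF21 is bright in nearly every column and TBX18 in many, while the other 5 factors show as a few isolated bright cells.

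TCF21 was the only factor detected in nearly all kept cells. In kept cells it ranged from 0.603 CPM in cell 11 to 1583.8 CPM in cell 26, with a median of 319 CPM and a mean of 451 ± 435 CPM (SD over 25 cells), and it was detected in 24 of 25 (96.0%, Wilson 95% interval 80.46 to 99.29). Among detected cells it was lowest in cell 29 at 37.4 CPM, followed by cell 25 at 44.9, and 22 kept cells reached 50 CPM. The 5 highest kept cells held 51.7% of the summed TCF21 level, so no single cell dominated it. In the 15 cells not kept TCF21 was detected in 13 and reached 4131.7 CPM in cell 34, which had the fewest reads of all cells. At least 1 TCF21 read was present in all 40 cells, also in those with cardiomyocyte or macrophage markers, so a few reads alone did not set a cell apart. Such intervals cover the counting of cells only.

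TBX18 was the second most frequent factor and was graded rather than uniform. It ranged in kept cells from 0.302 CPM in cell 11 to 2789.1 CPM in cell 8, with a median of 94.4 CPM. Detection held for 19 kept cells (76.0%, 56.57 to 88.5), 15 of them at 50 CPM or more and 4 below that level. The other 6 kept cells, 2, 11, 12, 19, 29 and 31, had 1 to 4 TBX18 reads. Cell 19 combined 784.9 CPM of TCF21 with 3 reads of TBX18, whereas cell 18 had 68.7 CPM of TCF21 and 608.6 CPM of TBX18. Among cells not kept, TBX18 was detected in 9 of 15 and reached 3325.0 CPM in cell 27. Cell 7, in which cardiomyocyte markers held 17% of reads, counted among them with exactly 5 TBX18 reads, so detection at 5 reads lies near the level of a cell with hardly any TCF21.

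**Figure D2:**
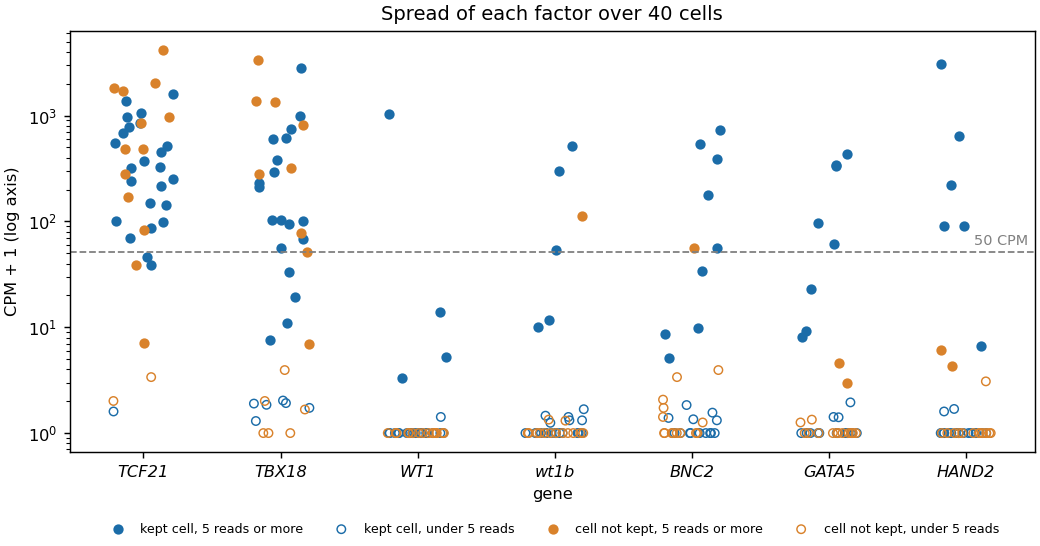
CPM + 1 of each factor on a log axis, 1 point per cell, filled where the gene had 5 or more reads. TCF21 points lie mostly above the dashed line at 50 CPM, and the 5 less frequent factors have 1 to 5 kept cells above it.

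Each of the other 5 factors was detected in 16 to 36% of kept cells and was concentrated in few of them. Their 5 highest kept cells held 97.0 to 100% of the summed level, against 77.1% for TBX18. WT1, wt1b and HAND2 were detected in 4, 5 and 6 kept cells, so for them this share largely follows from detection. The SD over the 25 kept cells exceeded the mean for each of them, with 77.8 ± 189 CPM for BNC2, 51.8 ± 122 for GATA5, 164 ± 618 for HAND2, 41.8 ± 205 for WT1 and 35.8 ± 117 for wt1b. The same held for TBX18 with 298 ± 585 CPM. At 50 CPM, 12 of 25 kept cells had none of the 5, 8 had 1, 4 had 2, and cell 40 had 3. At 5 reads the corresponding numbers were 6 cells with none, 11 with 1, 5 with 2, 2 with 3 and 1 with all 5.

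BNC2 was found in 9 kept cells (36%, 20.25 to 55.48), 5 of which had 50 CPM or more. Its level was 725.3 CPM in cell 15, 540.6 in cell 19, 391.6 in cell 3, 175.8 in cell 26 and 55.0 in cell 40. Levels then dropped to 32.7 CPM in cell 12 and to 4.14 to 8.7 CPM in cells 9, 22 and 31. The 5 cells at 50 CPM had between 520.1 and 1583.8 CPM of TCF21, all above the kept median of 319. Kept cells 35, 8, 21 and 37 also had high TCF21, 687.0 to 1363.6 CPM, with 0 or 1 BNC2 read. In cells 12, 31, 9 and 22, with BNC2 under 50 CPM, TCF21 was 98.1, 252.1, 319.1 and 372.5 CPM. The single cell at 50 CPM among those not kept, cell 36, had 55.5 CPM of BNC2 and 1720.9 CPM of TCF21. Cells 34, 27, 23, 6 and 4, also not kept, had 847.4 to 4131.7 CPM of TCF21 with 0 or 1 BNC2 read.

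GATA5 was detected in 8 kept cells (32%, 17.21 to 51.59) and also reached 50 CPM in 5, namely cell 28 with 428.7 CPM, cell 5 with 338.2, cell 40 with 333.6, cell 25 with 94.6 and cell 38 with 60.5. Cells 37, 19 and 15 followed with 22.2, 8.1 and 7.1 CPM. TCF21 in the 5 cells ranged from 44.9 to 555.9 CPM, on both sides of the kept median. All 5 also had TBX18 at 50 CPM or more, from 54.8 CPM in cell 5 to 741.1 CPM in cell 38. TBX18 reached 50 CPM in 15 of 25 kept cells.

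HAND2 was detected in 6 kept cells (24%, 11.5 to 43.43). Its highest level, 3061.1 CPM in cell 26, was 4.82 times the next, 634.7 CPM in cell 10, and made up 74.6% of the summed level. Cell 26 also had the highest endothelial share of all cells, 0.162% of reads, which came from FLI1, with cdh5 and TIE1 at 0 in every kept cell; its part in the HAND2 level was not tested. Cells 21, 25 and 40 had 220.6, 89.5 and 88.7 CPM, and cell 28 had 5.65 CPM. Among cells not kept HAND2 stayed at 5.06 CPM or less.

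At 5 reads and at 50 CPM the Wilms tumor genes were detected in the fewest kept cells. At 1 read wt1b was in 44.0% and HAND2 in 32%, so that order rests on the level. WT1 was detected in 4 kept cells (16%, 6.4 to 34.65), but 98.1% of its summed level came from cell 29 with 1024.1 CPM. Cells 40, 35 and 15 had 12.8, 4.2 and 2.3 CPM, and 35 of all 40 cells had no WT1 read. wt1b was detected in 5 kept cells (20%, 8.86 to 39.13), with 519.0 CPM in cell 5, 300.8 in cell 18, 52.4 in cell 28, 10.7 in cell 40 and 9.0 in cell 10. It also had 112.0 CPM in cell 14, which was not kept. The 2 genes were detected together in cell 40 only, and no cell had both at 50 CPM. Reads of such copies are divided by estimation. Of the nonzero values, 13 of 14 for wt1b and 4 of 5 for WT1 lay within 0.005 of a whole number, and cell 29, which held the fractional WT1 value, had no wt1b reads.

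Cell 29, the main WT1 cell, was low in TCF21 and in several marker genes. It had the lowest total of the kept cells, 1364664 reads, TCF21 at 37.4 CPM and 1 read of TBX18. krt8 stood at 2.93 CPM and the proteoglycan gene DCN at 1.47 CPM, while the keratin gene krt94 stood at 1352.7 CPM and COL1A2 at 465 CPM. The epicardial list held 0.162% and the fibroblast list 0.144% of its reads, against kept medians of 1.73% and 1.46%. Cell 11, with macrophage markers, was lower still, at 0.0335% and 0.00274%. Cell 29 had the highest level in kept cells of foxc1b, a forkhead factor gene, at 1167.3 CPM. Of 8 gene rows for genes linked to Wt1 in mouse, 0 reached 50 CPM in cell 29, and none of them did so in more than 4 of 25 kept cells. At 5 reads podxl, ALDH1A2, snai1a and nes were each detected in 3 of the 4 WT1 cells, and in 6, 6, 7 and 7 of 25 kept cells. Of the other rows, basp1 and bcl2a were detected in 1 WT1 cell each, and snai1b and NTRK2 in 0. The WT1 cells 15 and 40 are those with the most genes detected, and the part of gene number in these counts was not tested.

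**Figure D3:**
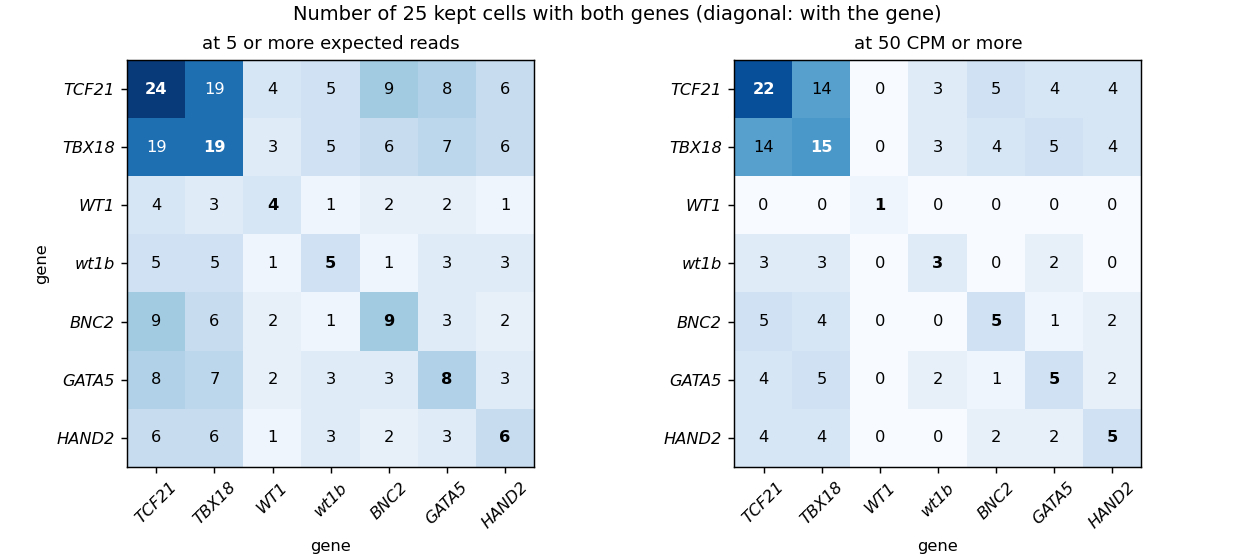
Number of the 25 kept cells that hold both genes of a pair, at 5 expected reads (left) and at 50 CPM (right), with the cells holding each gene on the diagonal. At 50 CPM the lower right block is sparse, with wt1b and GATA5 sharing 2 cells and BNC2 and GATA5 sharing 1.

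Since TCF21 was detected in 24 of 25 kept cells, every detected value of the other 6 factors fell in cells with TCF21, and these joint counts carry little information. TBX18 likewise accompanied all 5 wt1b cells and all 6 HAND2 cells, 7 of 8 GATA5 cells and 6 of 9 BNC2 cells. It was detected in 19 of 25 kept cells. At 50 CPM, 14 kept cells had TCF21 and TBX18 together, 8 had TCF21 without TBX18 and cell 25 had TBX18 without TCF21. The 14 cells were 63.6% of the TCF21 cells and 93.3% of the TBX18 cells. Without cell 40 the 3 numbers were 13, 8 and 1.

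With counts this small, sharing or not sharing a cell sets no pair apart. Among the 5 less frequent factors, all 10 pairs were found together in at least 1 kept cell at 5 reads, but no pair shared more than 3 cells. Without cell 40, 7 of the 10 pairs were left. At 50 CPM 4 pairs were left with cell 40 and 3 without it. BNC2 and GATA5, with 5 cells each, met in cell 40 alone, so BNC2 was in 20% of GATA5 cells and in 20% of all kept cells. At 5 reads BNC2 was in 3 of 8 GATA5 cells (37.5%) and in 36% of kept cells, so the pair was together about as often as BNC2 was found at all. wt1b and GATA5 met in cells 5 and 28, which are 2 of 3 wt1b cells and 2 of 5 GATA5 cells. BNC2 met HAND2 in cells 26 and 40, and GATA5 met HAND2 in cells 25 and 40.

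The cells showed many different combinations. At 5 reads 18 combinations of the 7 factors were counted among 25 kept cells, led by TCF21 with TBX18 alone in 4 cells. At 50 CPM there were 14, led by TCF21 alone in 6 cells (2, 9, 12, 22, 31 and 35) and TCF21 with TBX18 in 5 (8, 13, 16, 37 and 39). A kept cell had a median of 3 factors at 5 reads and of 2 at 50 CPM, and the extremes at 5 reads were cell 11 with 0 and cell 40 with 7. The number of factors at 5 reads followed the number of genes detected, with a Spearman correlation of 0.668 over 25 kept cells and 0.623 without cell 40. At 50 CPM the values were 0.411 and 0.332. The part that gene number plays in the joint counts was not tested.

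**Figure D4:**
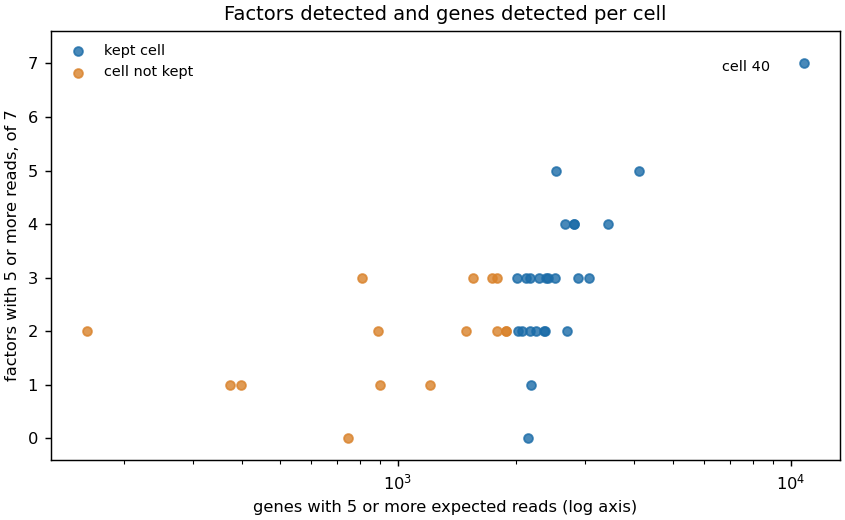
Number of the 7 factors with 5 or more reads against the number of genes with 5 or more reads (log axis), 1 point per cell. Cell 40 holds all 7 factors and 10792 genes, and cells with more genes tend to hold more factors.

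Levels of the 4 factors detected in at least 8 kept cells were compared in pairs as log2(CPM + 1). All pairs share libraries and depth, and correlations over cells of 1 sample are descriptions. The highest Spearman correlation was that of TCF21 and BNC2, 0.459 over 25 kept cells, 0.436 without cell 40 and 0.463 with genes detected held fixed. Among 1747 other genes with a symbol, detection in at least 8 kept cells and a mean of at least 10 CPM, BNC2 ranked 21st from the top for TCF21. TCF21 and TBX18 had 0.315, rank 134 of the same 1747, and 0.303 without cell 40. Cell 11, with macrophage markers, was the lowest kept cell for both TCF21 and TBX18, at 0.603 and 0.302 CPM. No correlation was computed without cell 11, and its part in these values was not tested. In RefSeq's gene order on the assembly GRCz12tu these 2 genes are close neighbours, with 9 protein-coding genes between them. TBX18 and GATA5 had 0.263, BNC2 and GATA5 0.184, TCF21 and GATA5 0.137 and TBX18 and BNC2 -0.043, which are weak values for sparse counts. Without cell 40 these pairs had, in the same order, 0.22, 0.122, 0.108 and -0.096. The median correlation over all 1747 genes was 0.055 for TCF21, 0.069 for TBX18, 0.084 for BNC2 and 0.089 for GATA5.

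**Figure D5:**
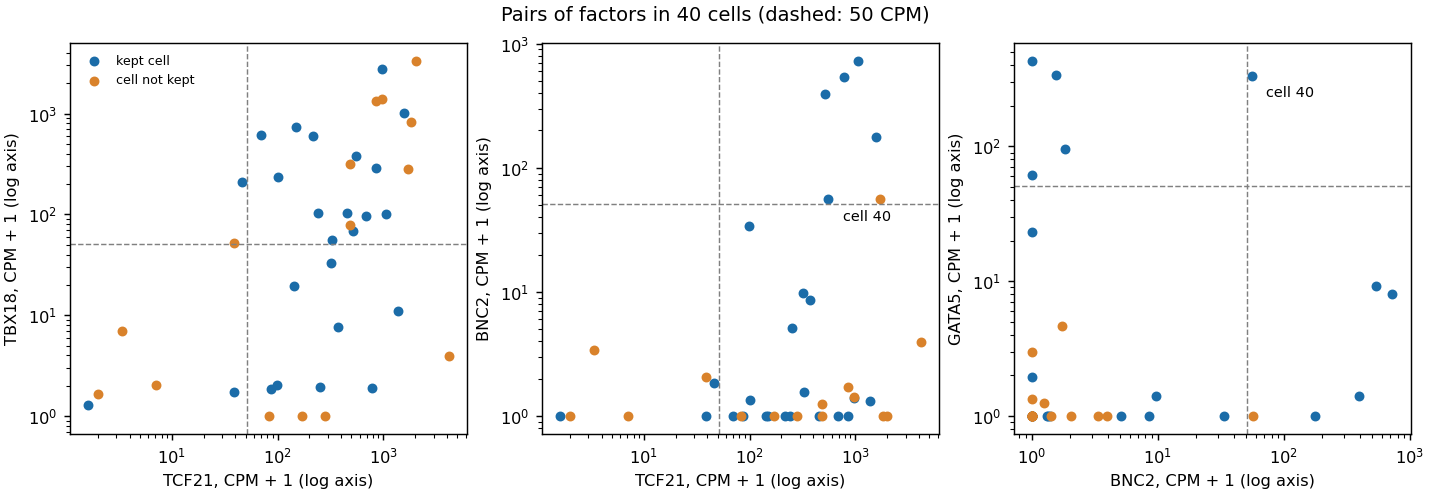
CPM + 1 of factor pairs on log axes, 1 point per cell, with dashed lines at 50 CPM. BNC2 above 50 CPM occurs to the right of 500 CPM of TCF21, where other cells have hardly any BNC2. In the BNC2 and GATA5 panel the area above both lines holds cell 40 alone.

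Among the genes most like TCF21 over kept cells were FOSL2 (Spearman 0.622), an AP-1 factor gene, flnb (0.614), a filamin that cross-links actin, RPS21 (0.590), which encodes a protein of the small ribosomal subunit, and SEMA4B (0.573), a semaphorin gene. The lowest were SEC61B (-0.621), of the translocon of the endoplasmic reticulum, NR4A3 (-0.572), an orphan nuclear receptor gene, and VGLL4 (-0.557), a cofactor of TEAD factors. For TCF21, 10 of 1747 genes had a correlation of at least 0.5. flnb went from 0 to 3948.9 CPM, the latter in cell 19. SEMA4B was no longer in 8 cells once cell 40 was left out, and the other 3 named highest genes had correlations of 0.583 to 0.620. By Pearson correlation, 0 of the 5 highest genes of TCF21 stayed among its 5 highest.

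The genes most like TBX18 were RPS14 (0.688) and rpl32 (0.629), again ribosomal, SOSTDC1 (0.593), which encodes a secreted antagonist of BMP and Wnt signals, the splicing factor gene SF3B1 (0.586) and CNN2 (0.581), a calponin that binds actin. SKP1 (-0.607) and FBXW11 (-0.532), subunits of ubiquitin ligases, and the nuclear receptor gene NR4A1 (-0.518) were lowest. Without cell 40 these 5 highest values were 0.564 to 0.705. SOSTDC1 was detected in 14 kept cells, 13 of them with TBX18, and reached 3640.5 CPM in cell 25. Ribosomal protein genes were then counted as a group, a choice made after these values were seen. For TCF21, 55 of 66 (83.3%) had a correlation above 0, beside 61.8% of all 1747 genes, and for TBX18 81.8% beside 62.9%. The shares were 77.3% beside 66.6% for BNC2 and 80.3% beside 62.7% for GATA5, so a high share was common to all 4.

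BNC2 was closest to gpx4a (0.723), a glutathione peroxidase gene, ZFR (0.715), an RNA binding protein gene, SEM1 (0.653), a proteasome subunit gene, RAPGEF1 (0.653), an activator of Rap1, and PEX5 (0.640), the import receptor of peroxisomes. gpx4a was detected in 9 kept cells, 7 of them with BNC2. Without cell 40 gpx4a, SEM1 and RAPGEF1 had 0.695, 0.634 and 0.655, while ZFR and PEX5 were no longer ranked. By Pearson correlation, 1 of the 5 highest genes of BNC2 stayed among its 5 highest, and 0 with a pseudocount of 10 CPM. The lowest were SLC25A47 (-0.515), abca5 (-0.477) and PGK2 (-0.418), and abca5, detected in 10 kept cells, shared 1 with BNC2. Among the genes closest to GATA5 were NONO (0.719), an RNA binding protein gene, CKB (0.669), a creatine kinase gene, rbm14a (0.661) and WLS (0.654), which encodes the carrier for Wnt secretion. NONO, CKB and WLS were each detected in all 8 GATA5 cells, and in 12 to 15 kept cells in all. Without cell 40 the named highest genes of GATA5 had 0.629 to 0.737. TNNI2 (-0.639), NMNAT3 (-0.596) and POMGNT2 (-0.589) were lowest for GATA5. The correlation of a factor's level with the number of genes detected was 0.719 for wt1b, 0.47 for GATA5, 0.284 for BNC2, 0.262 for WT1, 0.254 for HAND2, 0.23 for TBX18 and 0.0569 for TCF21.

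WT1, wt1b and HAND2 were in too few kept cells for a correlation, so genes were ranked by the Jaccard index, the cells with both divided by the cells with either. For WT1, PSMC4, SLC48A1, IRS2 and TMEM184C tied at 0.75, each found in 3 cells that all had WT1, and RAD54L2 followed at 0.6. The tie rests on cell 40: without it those 4 genes were in fewer than the 3 cells required, and RAD54L2 had 0.5. For wt1b, CPAMD8 stood highest at 0.833, in all 5 wt1b cells and 1 more, followed by TRIM8, MEF2D and SEC13 at 0.8 and sult1st1 at 0.714. MEF2D encodes a MADS box factor of muscle genes. Without cell 40 the 5 values for wt1b were 0.667 to 0.8. For HAND2, JTB, CLPTM1, SERINC5 and EEF2K tied at 0.667 with 4 shared cells, and CHCHD2 stood at 0.625, and without cell 40 these 5 had 0.571 to 0.6. With so few cells many genes score alike: 166 of 3918 genes were at 0.5 or above for wt1b, 58 for HAND2 and 42 for WT1.

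Other factors of the heart mesoderm were detected in some kept cells each. That list had 25 gene rows, of which 0 had 5 reads or more in at least 90% of kept cells, 12 did so in 10 to 90%, 5 in a smaller share and 8 (32%) in no cell. Over all 21939 genes with a symbol, 24.6% were in the class of 10 to 90% and 48.8% in no cell. A row for MEF2C (ENSDARG00000029764), a MADS box factor gene, was detected in 19 kept cells at no more than 48.0 CPM. MEIS1, a homeobox factor gene, reached 50 CPM in 8 kept cells and had a correlation of 0.435 with TBX18, above the 95th percentile of all genes for TBX18, 0.393. Only 3 rows of the list were in enough cells for a correlation. The others, this MEF2C row and MEF2A, had -0.001 and 0.083 with TBX18. TBX20 was detected in 3 kept cells, TBX5 in 1 and ISL1 in 0. Of 9 rows for family members related to the 7 factors, 6 were detected in none, among them TBX15, GATA2 and GATA3. Only 9 of the 14 symbols of that family list were matched. The related genes gata4, gata6, hand1, bnc1 and msc were not matched and were not looked at. In the mesoderm list gata4, gata6, nkx2.5 and meis2a were not matched. gata1a was detected in 12, but reached at most 13.7 CPM.

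Among the partners of the helix-loop-helix factors, TCF12, an E protein gene, was detected in 14 kept cells and tcf3a in 3. ID3 and ID1, which encode inhibitors that bind E proteins, were detected in 18 and 14. Their correlations with TCF21 were 0.16 for TCF12, 0.223 for ID3 and 0.044 for ID1, below its 95th percentile of 0.349 over all genes, and tcf3a was in too few cells for a value. twist1a, a helix-loop-helix factor gene of mesenchymal cells, was detected in all 6 HAND2 cells and 6 others. All 12 of these cells also had TBX18, which was detected in 19 of 25 kept cells. The correlation of twist1a with TBX18 was 0.356, below the 95th percentile of all genes for TBX18, 0.393. twist1a was also in 6 of 8 GATA5 cells, 5 of 9 BNC2 cells, 4 of 5 wt1b cells and 2 of 4 WT1 cells, beside 12 of 25 kept cells. It reached 50 CPM in all 5 cells with HAND2 at that level, at 131 CPM in cell 10, 508 in cell 21, 502 in cell 25, 648 in cell 26 and 107 in cell 40, and in 4 other kept cells. Of the 15 rows for factors of mesenchymal transition, zeb2a was detected in 13 kept cells, snai2 in 2 and twist2 in 0.

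The other epicardial genes were set beside the 4 more frequent factors over the 16 rows detected in at least 8 kept cells. Their median correlation was 0.177 with TCF21, 0.16 with BNC2, 0.114 with TBX18 and 0.088 with GATA5, where all 1747 genes had 0.055, 0.084, 0.069 and 0.089. Unlike the 1747 genes, list rows needed no mean of 10 CPM, and an EFEMP2 row had a mean of 3.3 CPM. Above 0 were 15 of 16 for TCF21 and 11, 11 and 10 for BNC2, TBX18 and GATA5, beside 61.8, 66.6, 62.9 and 62.7% of all genes, so for GATA5 the list lay at the level of all genes. The cells include cell 11, with macrophage markers, which had the lowest TCF21 level and the lowest epicardial share of kept cells, 0.0335%. The part of cell 11 in these correlations was not tested. tmem88b, a transmembrane protein gene, had the highest with TCF21, 0.484, and had 0.376 with BNC2. For TBX18 the keratin genes krt4 and krt8 had 0.39 and 0.377, krt94 had 0.113 and krt15 -0.119. All of these lay below the 95th percentile of all genes for TBX18, 0.393. ALDH1A2 and podxl reached 50 CPM in cells 15, 25 and 40, of which 15 and 40 had BNC2 at that level, 25 and 40 had GATA5 and HAND2, and none had WT1 or wt1b. At 5 reads, each of the 2 genes was detected in 3 of 4 WT1 cells, 3 of 5 wt1b cells, 4 of 8 GATA5 cells and 2 of 9 BNC2 cells. GATA5 had 0.544 with col1a1a, 0.421 with COL1A2 and 0.274 with COL1A1, all type I collagen genes. The 95th percentile of all genes for GATA5 was 0.437. The collagen genes COL5A1 and col6a1 had -0.019 and -0.046. Of 8 fibroblast rows 6 were above 0 for GATA5, 6 for TCF21, 7 for TBX18 and 5 for BNC2.

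Markers of mural cells, the cells that wrap blood vessels, were looked at in the wt1b cells. Of 11 mural symbols 10 were matched, and pdgfrb, which was not, could not be looked at. Cell 5 had the mural genes RGS5 at 275 CPM, NOTCH3 at 138, KCNJ8 at 113 and CSPG4 at 69.0, and cell 18 had 880 CPM of RGS5 and 1335.7 CPM of rgs5b. Cell 28 had 145 CPM of NOTCH3, and cell 14, not kept, had 10613.0 CPM of rgs5b. Among kept cells NOTCH3 was highest in cell 26, at 3362.7 CPM, and rgs5b in cell 9, at 2887.4 CPM. These cells had 2 and 1 wt1b reads. RGS5 was highest in cell 18, and KCNJ8 and CSPG4 in cell 5. The mural list held 0.208, 0.353, 0.217 and 1.07% of reads in cells 5, 18, 28 and 14, against 0.000307 to 0.437% and a median of 0.208% in kept cells, with 5, 3, 2 and 2 of its 10 symbols detected and the muscle actin gene acta2 at 0 in all 4. With the TAGLN rows left out, a choice made after the values were seen, 12 of 25 kept cells had a mural gene at 50 CPM. They held 3 of 3 wt1b cells, 5 of 5 BNC2 cells, 3 of 5 GATA5 cells, 3 of 5 HAND2 cells, 12 of 22 TCF21 cells, 10 of 15 TBX18 cells and 0 of 1 WT1 cells. The mural rows detected in at least 8 kept cells were rgs5b and the 2 TAGLN rows. Over these 3 rows the median correlation was 0.051 with TCF21, -0.024 with TBX18, 0.049 with BNC2 and 0.107 with GATA5. With TAGLN included, the summed mural level of wt1b cells 5 and 28 lay at or near the kept median. The TAGLN rows, which are also in the epicardial list, had 1188.2 and 300 CPM in cell 5 and 2023.4 and 0 CPM in cell 28. Cardiomyocyte markers held 0.89% of reads in cell 18, with 5 of 9 symbols detected, 0.33% in cell 40 and at most 0.0234% in the other GATA5 and wt1b cells at 50 CPM among kept cells. The part of these markers in the results was not tested.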

How the data were processed

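Bowtie2, RSEM 1.2.12 and the build Zv9 are named, per the submitters' processing notes, without their roles or settings. The authors deposited 1 table of expected counts per gene for the 40 cells, with no normalization. Reads carry no molecular identifiers in the protocol, so they are not independent molecules.

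CPM, detection, joint counts, correlations and Jaccard indices were computed with Python 3.11.15, pandas 2.3.3 and scipy 1.17.1. CPM does not correct for gene length, so levels were read mainly between cells. The levels of 5 reads and 50 CPM were the same for every gene. Which factors were counted, alone or together, can therefore also depend on gene length. Symbols came from a table supplied with the data, which names 21939 of 33737 genes; 144 of 177 list symbols were matched, exactly, ignoring case or without the copy letter. Genes named beside the members are list members, the 5 highest and 3 lowest by Spearman correlation per factor in at least 8 kept cells, or the 5 highest by Jaccard index, with ties ordered by mean CPM, among genes in at least 3 kept cells; 2 of these are not reported here. The correlation ranking was tried on simulated cells in which planted genes followed a known profile. That profile had a value in every cell, so the trial does not show how well genes are ranked for sparse factors. The Jaccard ranking was not simulated. No doublets were called, since the libraries are few. Members, lists and levels were chosen with earlier results of these data known.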

Additional observations from a re-analysis of the deposited data

How the results depend on the processing

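The settings changed were the detection level, the cells included, thinning of each kept cell to 1364664 reads, the kind of correlation, the scaling, and the filter on low genes. With 1 read in place of 5, TCF21 and TBX18 were in 100% of kept cells, wt1b in 44.0% and BNC2 in 56%. At 50 CPM, WT1 was in 4.0% and BNC2 in 20%, and 13 of 21 factor pairs were found together. The other 43 of 49 shares stayed within the main interval, thinned cells and those without cell 40 included, and the median number of factors moved by less than 1 SD in all 7 settings. Over all 40 cells the correlation was 0.532 for TCF21 and TBX18, 0.337 for TCF21 and BNC2, 0.015 for TCF21 and GATA5, 0.125 for TBX18 and GATA5, and 0.073, with the sign turned, for TBX18 and BNC2. For BNC2 and GATA5 it was 0.030 by Pearson, -0.053 by Pearson with a pseudocount of 10 CPM, and 0.060 with genes detected held fixed. With that pseudocount TCF21 and GATA5 had 0.014. Of the 20 genes named by Spearman correlation, 6 were still among the 5 highest by Pearson and 7 with the larger pseudocount. The number was 5 over all 40 cells, 13 with median-of-ratios scaling and 17 without cell 40. By Pearson, 0 of 5 stayed for TCF21, 1 for BNC2, 2 for TBX18 and 3 for GATA5. For TCF21 0 also stayed over all 40 cells, and for BNC2 0 with the larger pseudocount. Of the 15 named by Jaccard index, 6 were left over all 40 cells and 10 without cell 40. The cause of these changes was not tested. CPM per coding length was not run.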
